A study of Homo sapiens with 16 samples.

Results

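SETD2 knockdown was followed over 6 pairs of RNA-seq libraries made from U2OS, an adherent human cell line that was derived from an osteosarcoma. Each pair held 1 library of cells given an siRNA against SETD2 (siSETD2) and 1 of cells given a non-targeting siRNA (siNT), matched by treatment and by the replicate number R1 or R2. The pairs came from cells in 2 mM hydroxyurea (HU) for 4 h, in 2 mM HU with 2 µM VE-822 for 4 h, and from cells without drug, all collected 48 h after transfection. These are 12 of the 16 libraries in the series, and the other 4 libraries, from cells in VE-822 alone, served only for comparison. Of the 58735 genes in the deposited table, the 13088 whose level averaged 1 FPKM or more across all 16 libraries were included. Both arms were transfected, so the siNT cells also carry an siRNA.

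SETD2 is the histone methyltransferase that places the trimethyl mark on lysine 36 of histone H3 (H3K36me3) as it travels with elongating RNA polymerase II, so the mark covers the bodies of transcribed genes. Proteins that read H3K36me3 act in DNA methylation, splicing, mismatch repair and homologous recombination, and SETD2 is lost in several kinds of tumour. HU blocks ribonucleotide reductase, so replication forks run short of dNTPs and stall, and ATR, the kinase that VE-822 inhibits, answers such forks. The title of the series links H3K36me3 to E2F-driven transcription under replication stress, and the pairs allow the siRNA difference to be followed with and without that stress.

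The 12 libraries held 22310806 to 27862552 fragments on genes, and 26548 to 28941 genes had at least 1 fragment. FPKM divides a gene's fragments by its exon length and by a depth for the library, and the depth behind the authors' values was 0.940 to 1.07 times each library's own total. All differences below are siSETD2 minus siNT on the log2(FPKM + 1) scale, where the changes of genes with low levels come out too small. Nothing in the labels states whether R1 and R2 came from separate cultures, so the p-values cover only the spread among these libraries, and that spread may be technical. The labels name the siRNA only as siSETD2, without its sequence and without saying whether it is 1 siRNA or a pool. Loss of SETD2 and any other effect of siSETD2 therefore cannot be told apart. In bulk RNA, fewer cells of a kind and less RNA per cell cannot be told apart either. Of the osteoblast and mesenchymal markers, 7 of 14 were expressed in enough FPKM to be tested, with 4 higher and 3 lower in siSETD2. VIM stood at 132 FPKM in siSETD2 and 123 FPKM in siNT, and RUNX2 at 1.38 and 1.29 FPKM, near the filter. The 3 lower ones were FN1 at 17.3 and 25.6 FPKM, CDH2 at 45.9 and 51.2 FPKM, and COL1A1 at 20.7 and 22.4 FPKM. Of the blood cell markers only CD3D, and of the endothelial markers none of 6, reached the same level. Of the 13 epithelial markers 5 reached it too, among them KRT18 at 78.5 FPKM in siSETD2 and 66.5 FPKM in siNT.

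The targeted transcript was lower in the siSETD2 library of all 6 pairs. SETD2 (ENSG00000181555, chr3:47016429-47163967, minus strand, GRCh38) lay at 2.01, 3.15 and 4.17 FPKM (lowest, median and highest of 6) with siSETD2, against 7.34, 8.08 and 8.40 FPKM with siNT, and the groups did not overlap. This is a log2 fold change of -1.14 with SE 0.122 (adjusted p = 0.0118, limma over all genes), and the exact two-sided sign-flip permutation test over the 6 pairs gave p = 0.03125, the smallest that 64 flips allow. Both tests count the 6 pairs as independent, though pairs of different treatments share a replicate number. In the R1 pairs 27.4% of the siNT level remained in HU, 35.6% in HU with VE-822 and 23.9% without drug. In the R2 pairs 51.1%, 50.01% and 51.7% remained, so the R1 libraries held the deeper knockdown in each treatment. Without the HU R1 pair or the HU with VE-822 R1 pair the adjusted p became 0.0643 and 0.0557, at fold changes of -1.06 and -1.12.

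Over the 6 pairs 47.6% of all tested genes were higher in siSETD2, and 98 genes were called higher and 147 lower, at a Benjamini-Hochberg adjusted p under 0.05 in limma with 1 term per pair. These are 0.749% and 1.12% of the 13088 genes tested, while 2739 genes, or 20.9%, had an unadjusted p under 0.05. The changes were small, with a median log2 fold change of 0.36 over the 98 and -0.39 over the 147, and only 19 and 30 of them passed 0.5 in size. All 98 were higher in 6 of 6 pairs, and 146 of the 147 were lower in 6 of 6, the exception being MIR3132, named after its values were seen, which rested on 0 to 4 fragments per siSETD2 library and 1 to 7 per siNT library. Of all 13088 tested genes 1907 kept 1 sign in the 6 pairs. The called genes were chosen on these same differences, so their shared sign is no separate result. The 6 siSETD2 libraries lay wholly apart from the 6 siNT libraries for 17 of the 98 and 44 of the 147, beside a background of 0.313% of all tested genes in the upward and 0.581% in the downward direction. Scaling every library to the same FPKM sum turned the balance to 727 higher and 74 lower, with the median of all tested genes at 0.08 under that scaling and -0.01 without it. That sum is larger than those deposited, so the pseudocount also weighs less there, and the part of each in the counts was not tested. Leaving out 1 pair gave 86 higher and 132 lower without untreated R1, but 10 and 20 without HU with VE-822 R2, 9 and 9 without untreated R2, 9 and 7 without HU R2, 3 and 4 without HU with VE-822 R1, and 0 and 0 without HU R1.

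**Figure D1:**
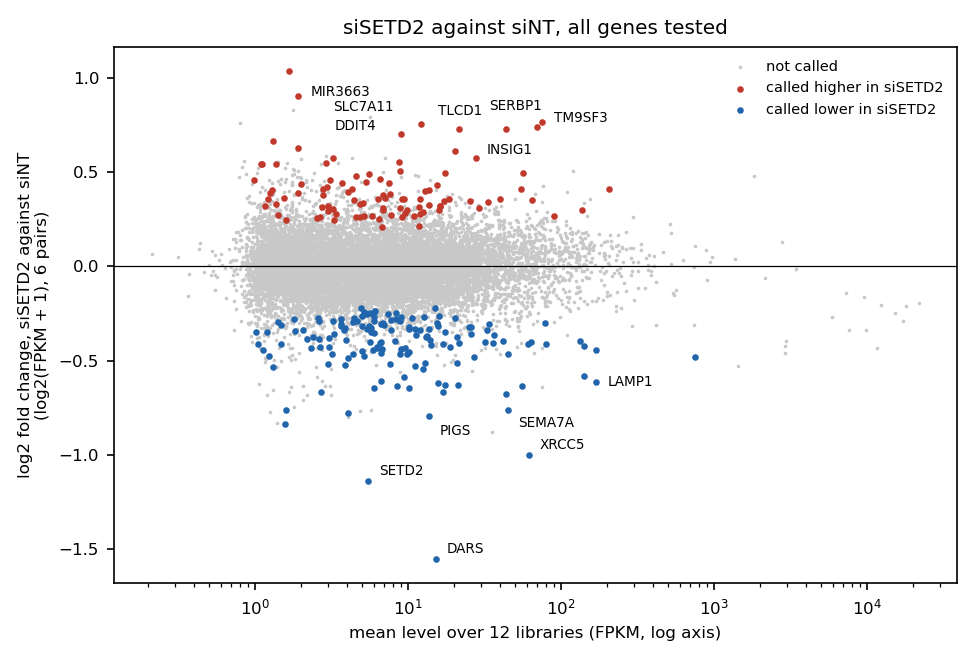
Mean level over the 12 libraries (FPKM, log axis) against the log2 fold change of siSETD2 against siNT over 6 pairs, 1 point per gene, with the 98 genes called higher in red, the 147 called lower in blue and the rest in grey. DARS at -1.55, SETD2 at -1.14 and XRCC5 at -1.001 lie below all other genes called lower, and the genes called higher reach 1.03.

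SETD2 was not the gene with the largest fall. DARS (ENSG00000115866, chr2:135906677-135986100), the cytosolic aspartyl-tRNA synthetase that charges tRNA with aspartate, fell by 1.55 (SE 0.201, adjusted p = 0.0208). It lay at 4.41, 7.60 and 11.4 FPKM in siSETD2 (lowest, median and highest), against 20.9, 22.6 and 24.8 FPKM in siNT, which leaves a wide gap between the groups. None of the other 22 cytosolic synthetases and their partners that were tested passed the threshold, and 16 of the 23 were higher in siSETD2. The alanyl- and valyl-tRNA synthetases, AARS and VARS, had log2 fold changes of 0.17 and 0.19 (adjusted p = 0.134 and 0.144).

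XRCC5 (ENSG00000079246, chr2:216107464-216206303), which encodes the Ku80 subunit of the heterodimer that binds DNA ends for non-homologous end joining, fell by 1.001 (SE 0.151, adjusted p = 0.0299). Its level was 27.3, 42.0 and 59.2 FPKM in siSETD2, against 74.7, 82.0 and 88.0 FPKM in siNT, with no overlap. It was the only one of 13 end-joining genes called, and the next by p were the shieldin subunit SHLD2 at -0.20 (adjusted p = 0.106) and the ligase LIG4 at 0.17 (adjusted p = 0.235). DARS differed by -2.12 in the R1 pairs and -0.99 in the R2 pairs, and XRCC5 by -1.41 and -0.60. Within R1, with 1 pair per treatment, DARS differed by -2.25 in HU, -2.18 with VE-822 added and -1.91 without drug. In the same order XRCC5 differed by -1.54, -1.42 and -1.26, and SETD2 by -1.50, -1.21 and -1.64. Whether DARS or XRCC5 follows the level of SETD2 was not tested. In VE-822 alone SETD2 differed by -0.87 in R1 and -0.99 in R2, whereas DARS differed by -0.90 and -0.48 and XRCC5 by -0.54 and -0.33. The difference R1 minus R2 had an unadjusted p of 2.75e-05 for DARS and 0.000236 for XRCC5, and neither passed adjustment over all genes (0.0899 and 0.281).

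**Figure D2:**
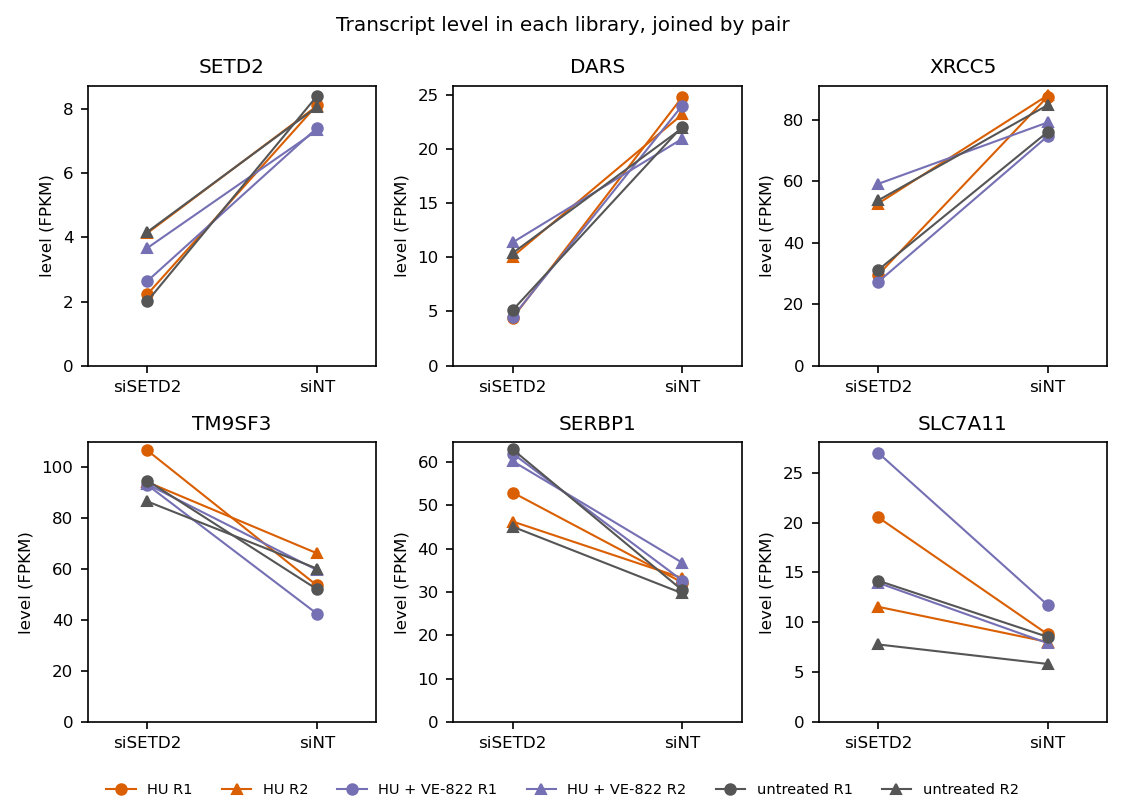
Level (FPKM, axis from 0) of 6 transcripts in each of the 12 libraries, with siSETD2 left and siNT right, a line joining the libraries of 1 pair, colour for the treatment, circles for R1 and triangles for R2. SETD2, DARS and XRCC5 are lower in every siSETD2 library and lowest in R1, while TM9SF3, SERBP1 and SLC7A11 are higher in the siSETD2 library of every pair.

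The other protein-coding genes among the 12 largest falls were PIGS, SEMA7A, ERLIN1 and YME1L1. PIGS, a subunit of the transamidase that attaches glycosylphosphatidylinositol (GPI) anchors to proteins, fell by 0.80 (adjusted p = 0.0143), to 6.44, 10.0 and 14.0 FPKM against 12.4, 17.6 and 21.0 FPKM in siNT. SEMA7A, a semaphorin held at the surface by such an anchor, fell by 0.76 (adjusted p = 0.00952), to 21.5, 33.4 and 47.7 FPKM against 38.1, 59.2 and 69.1 FPKM in siNT. Both genes overlapped between the groups. The siSETD2 library was the lower one in every pair, which the choice of these 12 genes required. ERLIN1, which takes part in the degradation of endoplasmic reticulum proteins, fell by 0.68 (adjusted p = 0.0495), with overlap between the groups. It differed by -1.03 in R1, -0.32 in R2 and 0.001 in VE-822 alone. The inner-membrane protease of mitochondria YME1L1 fell by 0.67 (adjusted p = 0.0347). ERLIN1 overlaps CHUK and YME1L1 overlaps MASTL, as DARS does its antisense DARS-AS1. YME1L1 lay at 10.2 to 17.2 FPKM in siSETD2, against 19.8 to 23.0 FPKM in siNT, without overlap.

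The rest of the 12 largest falls were RNAs without a known protein product. The antisense RNA AC024896.1, which overlaps TM7SF3 on the other strand, fell by 0.65 (adjusted p = 0.0118), to 6.70 to 9.85 FPKM against 9.94 to 15.3 FPKM in siNT, without overlap. The long non-coding RNAs AC112721.1 and AC112721.2 fell by 0.67 and 0.65 (adjusted p = 0.0414 and 0.0388). Both lie on the same strand as COL6A3, 7045 and 14545 bases from it, and COL6A3 itself fell by 0.61. The pseudogene AC061975.3 and the short RNU7-57P fell by 0.76 and 0.78 (adjusted p = 0.0143 and 0.0347), and RNU7-57P rested on 2 to 7 fragments per siSETD2 library and 5 to 10 per siNT library.

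Among the 44 genes that fell without overlap, the following were chosen after their values were seen. LAMP1, an abundant glycoprotein of the lysosome membrane, fell by 0.61 (adjusted p = 0.0186), to 116 to 154 FPKM against 179 to 225 FPKM in siNT. HMGA2, an architectural chromatin protein, fell by 0.62 (adjusted p = 0.0059), to 9.73 to 14.4 FPKM against 15.0 to 25.0 FPKM. LATS1, a kinase of the Hippo pathway, fell by 0.29 (adjusted p = 0.0328), to 3.84 to 4.45 FPKM against 4.83 to 5.69 FPKM, and the spliceosomal helicase AQR fell by 0.47 (adjusted p = 0.0292). LATS1 differed by nearly the same amount in both replicate numbers, at -0.27 in R1 and -0.31 in R2.

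Of the genes called higher, the protein-coding ones with the largest changes were TM9SF3, SLC7A11, HMOX1, SERBP1, TLCD1 and DDIT4. TM9SF3 (ENSG00000077147), a membrane protein of the Golgi, rose by 0.77 (SE 0.0912, adjusted p = 0.0143), at 86.5, 93.7 and 107 FPKM in siSETD2 against 42.5, 56.6 and 66.2 FPKM in siNT. SERBP1 (ENSG00000142864), which binds mRNA and ribosomes, rose by 0.73 (adjusted p = 0.0118), at 45.1, 56.6 and 62.9 FPKM against 29.7, 32.4 and 36.8 FPKM. TLCD1, a protein that sets the fluidity of the plasma membrane, rose by 0.73 (adjusted p = 0.0059), at 21.4, 27.9 and 32.5 FPKM against 10.8, 17.0 and 19.0 FPKM. The siSETD2 and siNT libraries did not overlap for any of these 3. TLCD1 shares its locus with RPL23A and NEK8 on the other strand, and the use of strand in the authors' counting is not given in the sources used here.

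SLC7A11 and HMOX1 were higher in the siSETD2 library of every pair, and the level of HMOX1 also differed widely between the replicate numbers. SLC7A11, the cystine importer that feeds glutathione synthesis, rose by 0.76 (adjusted p = 0.0292), at 7.77, 14.1 and 27.0 FPKM in siSETD2 against 5.82, 8.28 and 11.7 FPKM in siNT. HMOX1, the haem-degrading enzyme induced by oxidative stress, rose by 0.74 (adjusted p = 0.0336). Its R1 libraries held 121, 173 and 200.4 FPKM with siSETD2 in the order HU, HU with VE-822 and untreated, against 66.3, 102 and 75.8 FPKM with siNT. Its R2 libraries held 19.4, 29.01 and 13.8 FPKM with siSETD2, against 13.6, 18.1 and 10.98 FPKM with siNT. DDIT4, a stress-induced inhibitor of mTORC1, rose by 0.70 (adjusted p = 0.0118) and by similar amounts in R1 and R2, at 0.74 and 0.66.

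PITHD1 and the thioesterase-like THEM6 rose by 0.61 and 0.57 (adjusted p = 0.0308 and 0.0143). EID3, a subunit of the SMC5/6 complex, rose by 0.67 (adjusted p = 0.0336), and it lies inside the span of TXNRD1 on the same strand, so that fragments of the 2 genes may not be told apart. The 3 remaining genes among the 12 largest rises were non-coding, namely RF00019 (ENSG00000252822), MIR3663 and SEMA3B-AS1. MIR3663, counted here as its hairpin locus within a longer host transcript, rose by 0.90 (adjusted p = 0.0059) on 4 to 11 fragments per siSETD2 library and 1 to 5 per siNT library. RF00019 rose by 1.03 (adjusted p = 0.0299) on 2 to 10 fragments, against 0 to 5 in siNT. Of all called genes, 3 of the 98 and 4 of the 147 had under 200 bases of exon, and apart from the mitochondrial tRNA gene MT-TL1 none of these 7 exceeded 22 fragments in a library.

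**Figure D3:**
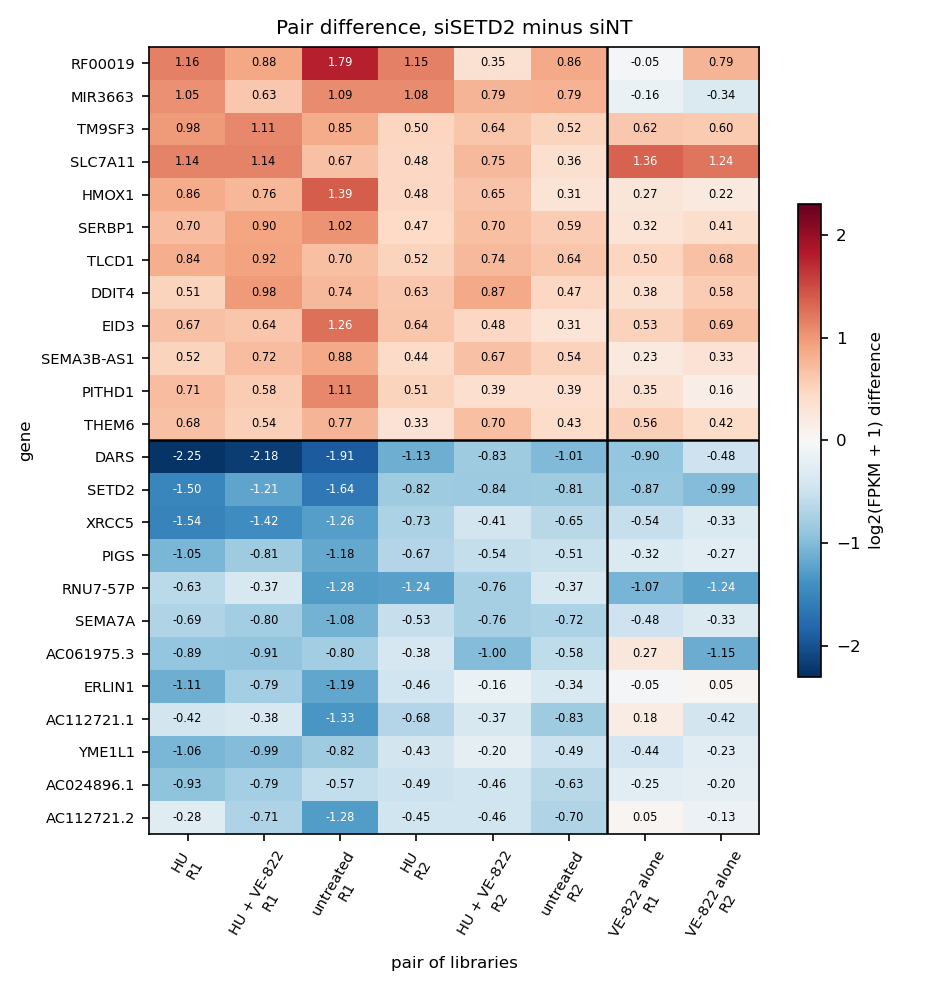
Difference in log2(FPKM + 1), siSETD2 minus siNT, in each pair of libraries (columns; the 2 VE-822-alone pairs right of the vertical line) for the 12 largest rises (upper rows) and the 12 largest falls (lower rows). The rows were chosen to keep their sign within the 6 pairs. DARS reaches -2.25 in HU R1, and MIR3663 is below 0 in both VE-822-alone pairs.

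Genes that answer amino acid and oxidative stress were higher in siSETD2 more often than lower. Of 33 tested genes of the ATF4 and amino acid response, 26 were higher and 7 lower, where 47.6% of all tested genes were higher. Their median was 0.12 against -0.01 over all tested genes, and 3 passed the threshold upward, as did 0.749% of all. These were DDIT4, SLC7A11 and CEBPB, a transcription factor of the stress response that rose by 0.41 (adjusted p = 0.045). CEBPB lay at 37.6, 67.1 and 78.6 FPKM in siSETD2 against 29.6, 46.2 and 59.8 FPKM in siNT. Of 23 tested NRF2 antioxidant genes, 20 were higher, with a median of 0.12, and 4 were called, namely SLC7A11, HMOX1, TXNRD1 and OSGIN1. TXNRD1 (ENSG00000198431), the cytosolic thioredoxin reductase, rose by 0.50 (adjusted p = 0.0347), at 43.1, 67.8 and 89.4 FPKM against 35.5, 48.4 and 50.1 FPKM. The NRF2 list stood at a median of 0.20 in R1 and 0.05 in R2, and the ATF4 list at 0.17 and 0.07. In VE-822 alone the NRF2 list stood at 0.14 in R1 and 0.26 in R2, and the ATF4 list at 0.20 and 0.28.

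Of 27 tested genes of cholesterol synthesis and sterol sensing 19 were higher, with a median of 0.12, at 0.18 in R1 and 0.07 in R2, and in VE-822 alone at -0.03 and 0.02. Only INSIG1, which holds the sterol sensor SCAP in the endoplasmic reticulum, was called, and it rose by 0.57 (adjusted p = 0.0328), at 18.2, 32.4 and 55.3 FPKM in siSETD2 against 16.3, 20.3 and 31.9 FPKM in siNT. The squalene synthase FDFT1 and the mevalonate pathway kinase PMVK had log2 fold changes of 0.27 and 0.35 and did not pass (adjusted p = 0.0704 and 0.0856). Of the chaperones of the endoplasmic reticulum 15 of 20 were lower, with a median of -0.11, and 1 was called. That was SEL1L, an adaptor of the ubiquitin ligase for misfolded proteins, which fell by 0.41 (adjusted p = 0.0415). SEL1L differed by 0.02 in VE-822 alone. The chaperone list stood at 0.00 in R1 and -0.18 in R2, but its median was 0.11 in the R1 pair in HU with VE-822, and 0.06 and 0.14 in R1 and R2 in VE-822 alone. The medians of these 4 lists over the 6 pairs kept their sign when libraries were scaled to equal FPKM sums or by median ratios.

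Of 26 tested genes of the NF-kB and cytokine list 19 were higher, where 47.6% of all tested genes were, with a median of 0.15. Of these 26 genes 4 were called, all upward, beside 0.749% of all tested genes. NF-kB is a family of inducible transcription factors that drives inflammatory and survival genes and its own feedback inhibitors. BIRC3 (ENSG00000023445), a ubiquitin ligase that restrains cell death downstream of TNF receptors, rose by 0.43 (SE 0.0608, adjusted p = 0.0292), at 12.5, 16.9 and 25.8 FPKM in siSETD2 against 9.05, 10.99 and 20.8 FPKM in siNT. TRAF1, an adaptor of the same receptors, rose by 0.38 (adjusted p = 0.0292). TNFAIP3, which encodes the feedback inhibitor A20, rose by 0.36 (adjusted p = 0.0309), and the subunit gene NFKB2 rose by 0.27 (adjusted p = 0.0481). The groups overlapped for all 4, and their level also moved with treatment and replicate number. The siSETD2 library was the higher one in 6 of 6 pairs for each, as for all 98 genes called higher. The list's median was positive in 5 of 6 pairs and stood at -0.04 in untreated R2, and in VE-822 alone it was 0.42 in R1 and 0.31 in R2.

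The promoters of 3 of these risen genes are printed because they hold matches to the motif named for their list. Other called list members held none in the window searched, namely TRAF1 and NFKB2 for NF-kB, INSIG1 for the sterol element, and DDIT4 and CEBPB for the amino acid response element. OSGIN1 of the NRF2 list also held an antioxidant response element. For SLC7A11 and HMOX1 no promoter was at hand, so they were not searched. Each printed promoter runs 5′ to 3′ over the window from 250 bases before to 50 after the start of the gene, from RefSeq on GRCh38.p14, with the matches in capitals. BIRC3 (chr11:102317234-102317533, plus strand) and TNFAIP3 (chr6:137867009-137867308, plus strand) carry 2 NF-kB motifs each, and TXNRD1 (chr12:104215529-104215828, plus strand) carries 1 antioxidant response element, the site of NRF2.
BIRC3: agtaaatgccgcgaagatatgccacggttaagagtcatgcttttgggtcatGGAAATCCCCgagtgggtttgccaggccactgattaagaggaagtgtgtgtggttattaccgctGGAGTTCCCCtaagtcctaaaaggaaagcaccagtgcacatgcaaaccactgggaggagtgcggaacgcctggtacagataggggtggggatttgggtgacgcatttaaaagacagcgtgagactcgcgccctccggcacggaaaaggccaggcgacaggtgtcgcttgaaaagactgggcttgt
TNFAIP3: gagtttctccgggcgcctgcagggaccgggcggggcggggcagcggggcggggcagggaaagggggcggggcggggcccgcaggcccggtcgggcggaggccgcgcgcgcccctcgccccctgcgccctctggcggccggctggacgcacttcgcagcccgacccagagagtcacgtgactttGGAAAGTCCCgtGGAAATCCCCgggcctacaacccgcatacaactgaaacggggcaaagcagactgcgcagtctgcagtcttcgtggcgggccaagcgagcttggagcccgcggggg
TXNRD1: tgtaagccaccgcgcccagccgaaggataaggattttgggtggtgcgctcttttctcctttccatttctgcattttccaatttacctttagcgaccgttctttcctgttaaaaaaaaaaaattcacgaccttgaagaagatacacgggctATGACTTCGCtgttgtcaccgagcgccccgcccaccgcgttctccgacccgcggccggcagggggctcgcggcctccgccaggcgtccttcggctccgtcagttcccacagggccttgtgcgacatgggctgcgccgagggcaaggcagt
The matches begin 199 and 135 bases before the start in BIRC3, 67 and 55 bases before it in TNFAIP3, and 100 bases before it in TXNRD1. The motifs themselves are common, so a match is a description of the letters and no evidence of binding.

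A promoter was at hand for 65 of the 98 genes called higher, 102 of the 147 called lower and 9144 of all tested genes, with 1 window per gene and both strands searched. The antioxidant response element occurred in 24.6% of the promoters of genes called higher and 17.6% of those called lower, against 16.5% of all. The NF-kB motif occurred in 7.69%, 7.84% and 6.69%. The sterol regulatory element CACCCCAC occurred in 3.08%, 4.90% and 2.55%, and the amino acid response element TGATGNAA in 0%, 1.96% and 1.73%. For E2F the spelling TTTCCCGC occurred in 4.62%, 3.92% and 2.81%, and TTTGGCGC in 0%, 0% and 1.15%. These shares rest on 0 to 18 promoters with a match per called set and were not tested.

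The list of matrix and TGF-beta genes had 32 of its 37 tested members lower, where 6860 of all 13088 genes were lower. Their median was -0.17 and 5 were called lower, beside 1.12% of all genes. FN1, which encodes fibronectin, fell by 0.63 (SE 0.123, adjusted p = 0.045), to 6.91, 15.9 and 27.4 FPKM in siSETD2 against 18.0, 23.1 and 35.8 FPKM in siNT. COL6A3, a chain of collagen VI, fell by 0.61 (adjusted p = 0.0389), to 2.87, 4.88 and 6.92 FPKM against 5.05, 8.27 and 11.4 FPKM. SPARC, a collagen-binding glycoprotein, fell by 0.44 (adjusted p = 0.0328), and the collagen-modifying enzyme PLOD2 fell by 0.36 (adjusted p = 0.0379). The groups overlapped for these 4 genes. The siSETD2 library was the lower one in 6 of 6 pairs for each, as for 146 of the 147 genes called lower. The list's median was negative in each of the 6 pairs and largest in size without drug, but in VE-822 alone it was positive, at 0.05 in R1 and 0.09 in R2. In HU it was -0.10 in R1 and -0.13 in R2. With VE-822 added to HU it was -0.06 in R1 and -0.12 in R2, and without drug it was -0.51 in R1 and -0.24 in R2. Whether these medians differ between treatments was not tested.

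The transcripts encoded in mitochondria were lower in siSETD2 for 13 of 13 genes, with a median of -0.27, though limma called none and 8 had an unadjusted p under 0.05. By p the first were MT-ND5, MT-ND6 and MT-ND1, subunits of complex I, with log2 fold changes of -0.46, -0.42 and -0.34 (adjusted p = 0.0677, 0.0871 and 0.0888). MT-ND5 averaged 2481 ± 495 FPKM in siSETD2 and 3378 ± 366 FPKM in siNT (SD, n = 6 each). The list's median was negative in every pair, at -0.33 in R1 and -0.25 in R2, and stayed negative when libraries were scaled to equal FPKM sums, at -0.18. The mitochondrial tRNA gene MT-TL1, outside the list, fell by 0.48 (adjusted p = 0.0479). Nuclear genes of the respiratory chain were higher in 36 of 54, with a median of 0.04, at 0.15 in R1 and -0.09 in R2. Of these COX7A2L, a factor that joins respiratory complexes into supercomplexes, fell by 0.59 (adjusted p = 0.0324), to 5.49, 7.18 and 9.07 FPKM against 10.4, 11.50 and 12.9 FPKM, without overlap.

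Other writers and erasers of H3K36 methylation differed little between the arms. All 12 tested genes of this list, which holds SETD2 itself, were lower in siSETD2, where 6860 of all 13088 tested genes were lower. Their median was -0.10, at -0.14 in R1 and -0.06 in R2, but 0.01 in the R1 pair in HU with VE-822. SETD2 was the only one called. Scaling to equal FPKM sums moved the median of all tested genes from -0.01 to 0.08, so the sign of the smallest differences here may depend on the scaling. The enzymes NSD1, NSD2, NSD3 and ASH1L, which add fewer methyl groups to the same residue, had log2 fold changes of -0.11, -0.13, -0.08 and -0.07 (adjusted p = 0.462, 0.191, 0.471 and 0.711). The other methyltransferases SMYD2 and SETMAR had -0.17 and -0.21 (adjusted p = 0.121 and 0.147). The demethylases KDM2A, KDM2B, KDM4A, KDM4B and KDM4C lay between -0.11 and -0.02. Of 19 readers of H3K36 methylation 13 were lower, with a median of -0.07 that turned to 0.02 when libraries were scaled to equal FPKM sums, and none was called, with 3 at an unadjusted p under 0.05. The first by p was the DNA methyltransferase DNMT3A, at 2.51 to 3.14 FPKM in siSETD2 against 3.10 to 4.30 FPKM in siNT (log2 fold change -0.26, adjusted p = 0.0623), followed by BRPF3 at -0.18 (adjusted p = 0.12) and PSIP1 at -0.16 (adjusted p = 0.131).

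E2F G1/S targets, the genes that the title of the series points to, showed little difference over these pairs. Of 74 tested, 47 were lower and 27 higher, with a median of -0.03 against -0.01 over all tested genes, and 1 was called. The median turned to 0.06 when libraries were scaled to equal FPKM sums, below the median of all genes under that scaling, 0.08. The called gene was FANCD2, the hub of the Fanconi pathway of crosslink repair, which fell by 0.27 (adjusted p = 0.0428), to 8.85, 11.6 and 14.5 FPKM in siSETD2 against 11.6, 13.1 and 17.6 FPKM in siNT. In VE-822 alone FANCD2 differed by 0.002 in R1 and 0.009 in R2. RRM2, the small subunit of ribonucleotide reductase, had a log2 fold change of 0.33 (adjusted p = 0.0774), and the replicative helicase subunit MCM4 of -0.20 (adjusted p = 0.0883). By pair the median of the list lay between -0.14 in HU R1 and 0.03 in untreated R1. It was lowest in HU, at -0.14 in R1 and -0.07 in R2, where all tested genes stood at -0.03 in both. In untreated R2 it was -0.06. Whether it differs between treatments was not tested.

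Limma called none of 16 dNTP supply genes, and their median was -0.04, which turned to 0.05 under scaling to equal FPKM sums. RRM2B, the p53-induced small subunit, had a log2 fold change of -0.34 (adjusted p = 0.0518), opposite in sign to RRM2, and both kept their sign in 6 of 6 pairs. The dNTP hydrolase SAMHD1 had -0.18 (adjusted p = 0.114). Of 26 p53 targets 17 were lower, with a median of -0.07 that turned to 0.01 under scaling to equal FPKM sums, and none was called. None of 53 G2/M genes, with a median of 0.01, and none of 22 genes of the replication checkpoint and fork protection, with a median of 0.00, was called. The unadjusted p was under 0.05 for 7, 7, 7 and 4 members of these lists, in the order given.

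Ribosomal protein genes were higher in 57 of 62, with a median of 0.09, none called and 2 at an unadjusted p under 0.05, but the replicate numbers parted. Their median was -0.10 in HU, 0.27 in HU with VE-822 and 0.55 without drug in R1, while in R2 it was -0.04, -0.06 and -0.08. Immediate early genes were higher in 15 of 22, with a median of 0.11 that was positive in every pair. Of them only ZFP36L1, which speeds the decay of AU-rich mRNAs, was called, and it rose by 0.30 (adjusted p = 0.0415). Interferon-stimulated genes had a median of -0.02 that turned to 0.07 under scaling to equal FPKM sums, with TRIM22 fallen by 0.43 (adjusted p = 0.0311) as the only call among 33. Of 28 spliceosome and SR protein genes and 15 heat shock chaperones none was called, with 3 and 4 at an unadjusted p under 0.05. The 5 tested epithelial markers were all higher, with a median of 0.13, none called and 3 at an unadjusted p under 0.05, and the mesenchymal marker list had 4 of 7 higher with FN1 as its only call.

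**Figure D4:**
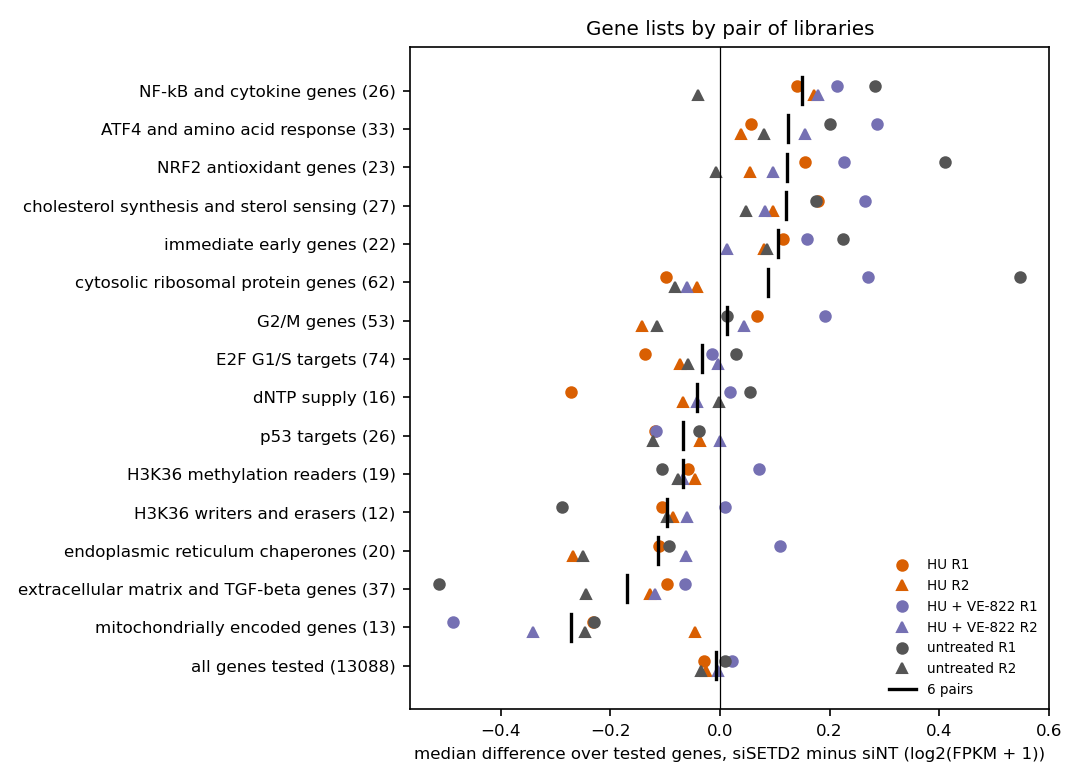
Median difference in log2(FPKM + 1), siSETD2 minus siNT, over the tested genes of 15 lists and over all genes (number tested in brackets), with 1 symbol per pair, colour for the treatment, circles for R1, triangles for R2 and a black bar for the 6 pairs. Mitochondrially encoded and matrix genes lie left of 0 in every pair, and ribosomal protein genes spread from -0.10 to 0.55.

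The R1 pairs held the deeper knockdown and also the larger differences for most called genes, and the part of knockdown depth in this was not tested. Of the genes called over the 6 pairs, 79 of 98 (80.6%) and 122 of 147 (83.0%) had the larger absolute difference in R1, against 60.8% of all tested genes, but these genes were called on the same libraries. For the R1 pairs limma called 161 genes higher (1.23%) and 242 lower (1.85%), and these include 49 of the 98 and 90 of the 147. This fit held all 6 pairs and took its spread from R1 and R2 together. Pairs of different treatments stood in there as replicates. For the R2 pairs the same fit called none (0%), although 1572 genes had an unadjusted p under 0.05. DARS, SETD2 and HMGA2 stood first among those lower, at -0.99, -0.82 and -0.55 (adjusted p = 0.0784, 0.104 and 0.104). The siRNA difference in R1 minus that in R2 was itself called for no gene (0%), with 1576 genes at an unadjusted p under 0.05 and a smallest adjusted p of 0.0514. That gene was MMP3, a matrix metalloprotease, at 1.42 in favour of R1, followed by LCP1 at 0.83 and MMP1 at 1.13 (adjusted p = 0.215 for both). Among those lower in R1, MIR6772, MIR1285-1 and DARS came first (adjusted p = 0.0899 for each). Leaving out the HU R1 pair or the HU R2 pair gave 2 and 1 calls.

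Split by treatment, the called genes moved by like amounts. The median difference of the 98 was 0.36 in HU, 0.36 in HU with VE-822 and 0.36 without drug, and that of the 147 was -0.41, -0.32 and -0.40. These values describe genes chosen on the same libraries. Taken alone, no treatment gave a call in limma (0% in each), with 1044 genes at an unadjusted p under 0.05 in HU, 908 in HU with VE-822 and 1593 without drug. Without the untreated R2 pair, the untreated contrast called 54 genes higher and 209 lower, with the lone R1 pair assumed to vary like the others. The siRNA difference in HU minus that in untreated cells, and in HU with VE-822 minus untreated, was called for no gene (0% in each), with 309 and 514 genes at an unadjusted p under 0.05 and smallest adjusted p-values of 0.939 and 0.434. The leading genes of both contrasts in each direction were non-coding RNAs and pseudogenes, with MIR4737 first upward at 1.21 and 1.43 (adjusted p = 0.939 and 0.434). Among protein-coding genes the smallest p within a treatment went to PPP1R35 in HU, at 0.78, to DDIT4 when VE-822 was added, at 0.92, and to CEMIP2 without drug, at -0.86 (adjusted p = 0.485, 0.452 and 0.281). These misses do not show that the treatments act alike.

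The 4 VE-822-alone libraries share no library with the 6 pairs and differed in the same direction for most of the called genes. Of the 98 genes called higher, 93 were higher in siSETD2 in VE-822 alone, and of the 147 called lower, 130 were lower there, where 47.0% of all tested genes were higher and 52.99% lower. SETD2 kept 49.97% and 44.6% of the siNT level in R1 and R2 in VE-822 alone. HMOX1, picked after its values were seen, lay at 18.4 and 18.8 FPKM with siNT in R1 and R2 there. In the 6 pairs its siNT level had differed widely between R1 and R2. Whether R1 and R2 in VE-822 alone belong to the same sets of libraries as those of the 6 pairs was not tested. Changes there were of other sizes for some genes, with SLC7A11 at 0.76 over the 6 pairs and 1.30 in VE-822 alone, BIRC3 at 0.43 and 0.84, DARS at -1.55 and -0.69, and LAMP1 at -0.61 and -0.07. The difference VE-822 alone minus the 6 pairs was called for no gene (0%), with 762 genes at an unadjusted p under 0.05. The first by p was PTX3, a soluble pattern receptor, at -0.04 over the 6 pairs and 0.74 in VE-822 alone (adjusted p = 0.0779 for the difference), followed downward by MIR3663 (adjusted p = 0.131). VE-822 alone called 18 genes higher (0.138%) and 2 lower (0.0153%), among them PTX3, NMRAL2P, GPR19, BIRC3, TNFAIP3, TRAF1 and SLC7A11 upward, and PTP4A3 and HMGB1P5 downward.

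Genes called higher were shorter than most and genes called lower longer. The span from start to end of the gene had a median of 9.53 kb in the 98 genes called higher and 55.8 kb in the 147 called lower, against 23.6 kb in all tested genes. The exons merged to a median of 2.96 kb and 5.47 kb, against 4.31 kb, with a median of 5, 12 and 9 exons. With the tested genes cut into 4 equal bins by span, the bin of the shortest genes, up to 7.40 kb, held 44 called higher and 13 lower, while the bin of the longest, from 61.0 kb, held 11 called higher and 68 lower. Protein-coding genes made up 77.6% of those called higher, 89.8% of those called lower and 81.5% of all. Within protein-coding genes alone the shortest bin held 42 called higher and 6 lower, and the longest 6 and 57.

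The same order ran through all tested genes, though not in each pair. From the bin of shortest to the bin of longest genes, the median difference over the 6 pairs was 0.04, 0.02, -0.02 and -0.06. When libraries were scaled to equal FPKM sums it was 0.13, 0.11, 0.07 and 0.02, so the order held while the sign of the long genes turned. In the shortest and the longest bin the median was 0.08 and -0.10 in HU R2, 0.12 and -0.12 in untreated R1, and 0.04 and -0.09 in untreated R2. In HU R1 it was -0.01 and -0.04, and in the pairs in HU with VE-822 it stayed between 0.02 and 0.03 in R1 and between -0.01 and 0.00 in R2. In VE-822 alone the medians were 0.04, 0.00, -0.02 and -0.04. Base composition also differed between the called sets, with a median of 55.8% G and C in the transcripts of genes called higher. It was 44.7% in those called lower, against 48.5% in all. From the bin of lowest to the bin of highest G and C content the median ran from -0.07 to 0.07 in R2 but from 0.01 to -0.02 in R1. The part of base composition or RNA quality in these differences was not tested.

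**Figure D5:**
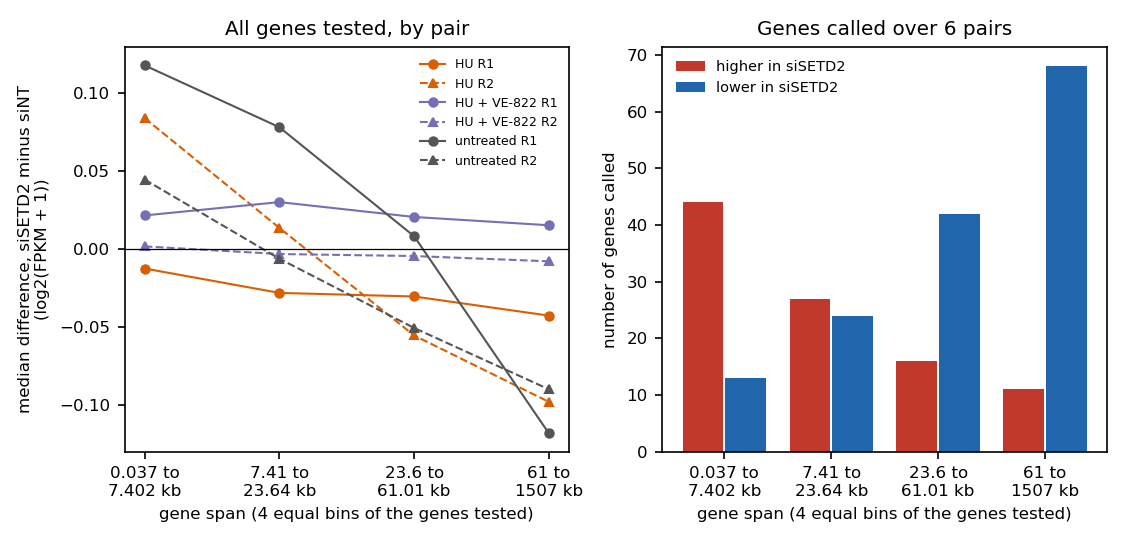
Left, median difference in log2(FPKM + 1), siSETD2 minus siNT, over the genes in each of 4 equal bins of gene span (kb), 1 line per pair, colour for the treatment, solid lines and circles for R1, dashed lines and triangles for R2. Right, number of genes called higher (red, left bars) and lower (blue, right bars) in each bin, from 44 and 13 in the shortest to 11 and 68 in the longest.

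A few called genes lay side by side. The pairs within 100000 bases of each other were TXNRD1 with EID3, PIGS with ALDOC, COL6A3 with AC112721.1 and AC112721.2, PLK4 with RNU6-583P, RPS18P9 with LATS1, and DNASE1L1 with FAM3A. PIGS and ALDOC, an aldolase of glycolysis, are 1243 bases apart on the same strand and moved in opposite directions, at -0.80 and 0.33. The other neighbours moved the same way. By chromosome the share of tested genes called ran from 0% on chromosome 21 to 4.39% on chromosome 10, where 13 of 547 were higher and 11 lower, and SETD2's own chromosome 3 had 2 higher and 11 lower of 708 (1.84%).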

How the data were processed

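The values analysed are FPKM that the authors deposited for 16 libraries in 1 table, for 58735 genes. Per the submitters' processing notes, the tools were DESeq2 1.26.0, featureCounts 1.5.0-p3, STAR 2.6.1d and FastQC with build hg38. The sources used here give neither strand nor parameters nor the annotation. All gene identifiers matched GENCODE release 29. FPKM times exon length and 1 factor per library gave whole fragments, within 0.01, for 100% of values.

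The members and gene lists were chosen with earlier results of these data known. Values were tested as log2(FPKM + 1) in limma 3.58.1 (limma-trend, R 4.3.3), with 1 term per pair (5 residual degrees of freedom) and Benjamini-Hochberg adjustment over 13088 genes at 0.05. Treatment-specific, R1 minus R2 and VE-822-alone contrasts came from separate fits (3, 4 and 6 residual degrees of freedom). Same-numbered libraries deviated together, with correlations of R1 minus R2 between the 6 groups of 0.363 to 0.746. Between the siSETD2 and siNT groups of 1 treatment they were 0.602 to 0.723, and groups of different treatments reached the 0.746. The numbers thus mark 2 sets of libraries that run across the treatments. The p-values count the 6 pairs as independent, which pairs of 1 set may not be. Named genes are the 12 largest rises and 12 largest falls with the same sign in all 6 pairs, all H3K36 writers and erasers, the 3 smallest p of each other list and of each direction of each other contrast, and others where stated. A simulated table was used to test the scripts. Alternatives covered pairing, pseudocount 0.1, filters, scaling, limma-voom on the recovered fragments, 8 pairs and leaving out each pair. Some genes are not reported here by name.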

Additional observations from a re-analysis of the deposited data

Results flagged for a closer look

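The EID3 difference in the untreated R1 pair, 1.259, stood apart from the other 5 pairs, which lay between 0.31 and 0.67. About 1 in 20 groups is marked this way by chance, and the gene rests on 0.910 to 3.63 FPKM in siSETD2 and 0.539 to 1.11 FPKM in siNT, within the span of TXNRD1.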

How the results depend on the processing

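The counts of 98 higher and 147 lower genes were 67 and 148 with an additive replicate block, 93 and 136 with a pseudocount of 0.1, 117 and 187 with a filter at 5 FPKM (6894 genes), and 111 and 135 after median-ratio rescaling. They moved to 2 and 1 with no replicate block, 0 and 0 with no filter on low values (38917 genes, 4278 at an unadjusted p under 0.05), 727 and 74 when scaled to equal FPKM sums, 273 and 422 with limma-voom on the fragments, and 506 and 635 with all 8 pairs. Leaving out each pair in turn gave 0 to 86 higher and 0 to 132 lower, with 2185 genes at an unadjusted p under 0.05 in the setting with none called. All 245 called genes kept their direction in each of these settings, 163 of them being tested at 5 FPKM. That was largely fixed in advance, since 98 of the 98 and 146 of the 147 had 1 sign in all 6 pairs. It is therefore no separate support for the calls. The SETD2 log2 fold change ran from -1.20 to -1.04 without 1 pair, and with no filter it was -1.14 at adjusted p = 0.12. The untreated contrast gave 0 to 263 calls without 1 pair, and R1 minus R2 gave 0 to 2. With no replicate block the contrasts within a treatment also gave no call. The cause of these changes was not tested. With 6 pairs in 2 replicate sets, small changes of low genes are not detectable, and 1 FPKM of a 97-base gene is a few fragments.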

Other observations

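Some genes called in siSETD2 share a pathway that no list covered, and they were picked after their values were seen, so no test applies to them as groups. Of the glycosaminoglycan enzymes picked in this way, 4 fell and 1 rose. Those that fell were XYLT2, which starts the chains, by 0.43 (adjusted p = 0.0323), CHSY3, a chondroitin synthase, by 0.52 (adjusted p = 0.0396), GLCE, the epimerase of heparan sulfate, by 0.53 (adjusted p = 0.0315), and EXTL2 by 0.34 (adjusted p = 0.0323). B3GALT6, which builds the linker of the same chains, rose by 0.28 (adjusted p = 0.0438). How many such enzymes were tested in all was not counted. In VE-822 alone XYLT2, CHSY3, GLCE and EXTL2 differed by -0.21, 0.07, -0.26 and 0.02. XYLT2 lay at 11.2 to 24.4 FPKM in siSETD2 and 14.6 to 28.8 FPKM in siNT, with overlap.

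The Hippo kinase LATS1, the TEAD transcription factor TEAD2 and the TEAD cofactor VGLL3 fell by 0.29, 0.28 and 0.30 (adjusted p = 0.0328, 0.0347 and 0.0353). The coatomer subunits ARCN1 and COPB1, which coat Golgi vesicles, fell by 0.40 and 0.32 (adjusted p = 0.0389 and 0.0328). The mitochondrial proteins CLPX, an unfoldase, and MTPAP, a poly(A) polymerase, fell by 0.37 and 0.31 (adjusted p = 0.0323 and 0.0349). Only called members of these groups are named, and how many others were tested was not counted, so nothing follows for a pathway or complex as a whole. The histone variant gene H2AFX rose by 0.35 (adjusted p = 0.0449), at 48.0 to 94.8 FPKM in siSETD2 and 46.5 to 74.0 FPKM in siNT, and differed by 0.03 in VE-822 alone.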
